A study of Mus musculus with 23 samples.

Results

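Adult duodenal crypts were compared with adult colon epithelium in mice by ATAC-seq, which marks open chromatin by the places where a transposase can insert sequencing adapters. The comparison rests on 6 of the 23 libraries of the series, 3 of adult crypt and 3 of adult colon. Peaks called in each library were merged into 1 catalogue wherever they overlapped by at least 1 bp, which gave 84198 regions of the 149024 found when all 23 libraries were merged. Each region was described by the libraries that had a peak in it and, where all 6 had one, by the height of the peak. The study compared regions of the intestine and stages of life, in 8 groups at 3 ages. Both adult groups were harvested at 90 days. Crypts were the part of the flushed and EDTA-released duodenal epithelium that passed through a 70 µm strainer, and they were dissociated with trypsin. Each adult colon library was colon epithelium pooled from 2 mice, and the stretch of colon taken is not named for the adults. Neither label states a strain, a transgene or a treatment.

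A crypt is the pocket at the base of the intestinal lining that holds the stem cells, their dividing progeny and, in the small intestine, Paneth cells that secrete antimicrobial peptides. Absorptive cells that leave the duodenal crypt cover the villi, whereas the colon has crypts and a flat surface but no villi. The adult crypt libraries therefore hold the lower part of the duodenal epithelium, and the colon libraries were labelled as colon epithelial cells without a further fraction. Segment of gut and fraction of the epithelium change together between the groups and cannot be told apart within this comparison. No gene annotation of the mouse build of the files was used, so regions are given by position (mm9, counted from 1), and the tissue labels were not checked against marker genes.

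The libraries of both groups also differed as libraries. The adult crypt libraries had 51732, 35222 and 57827 peaks, and the adult colon libraries had 21271, 27986 and 32855. Crypt libraries had more peaks without overlap between the groups (48260 ± 11696 against 27371 ± 5816, SD, n = 3 each, two-sided exact permutation p = 0.1, the smallest that 3 against 3 allows). Kept reads, in units of 1000000 (M), ran the other way, from 14.4 M to 23.9 M in crypt and from 23.4 M to 38.2 M in colon. Repeated reads made up 59.4 ± 3.87% of crypt libraries and 33.7 ± 5.22% of colon libraries (SD, n = 3). The length to which the peak caller extended each read was 106 ± 18 bp in crypt and 157 ± 6.11 bp in colon, and the median peak was 188 ± 22.7 bp and 309 ± 15.3 bp wide. Neither repeat share, extension nor width overlapped between the groups. The part of these library differences in the results below was not tested. All 6 libraries had peaks on chromosome Y, from 104 to 174 each.

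Because longer lists meet more regions, presence was counted on lists of equal length, each holding the 21271 strongest peaks of its library, and full lists are given beside them. On equal lists, 9019 regions had a peak in all 6 libraries. A further 2642 regions (3.14% of the catalogue) were exclusive to crypt, meaning called in 3 of 3 crypt and 0 of 3 colon libraries, and 3187 (3.79%) were exclusive to colon by the same rule. The presence rule allows no p below 0.1 for a single region, so these classes are counts without a test per region. Of the 13216 regions found in every crypt library, 68.2% were also in every colon library, and of the 15641 found in every colon library, 57.7% were also in every crypt library. Most regions that each tissue held in all of its libraries were thus open in both.

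**Figure D1:**
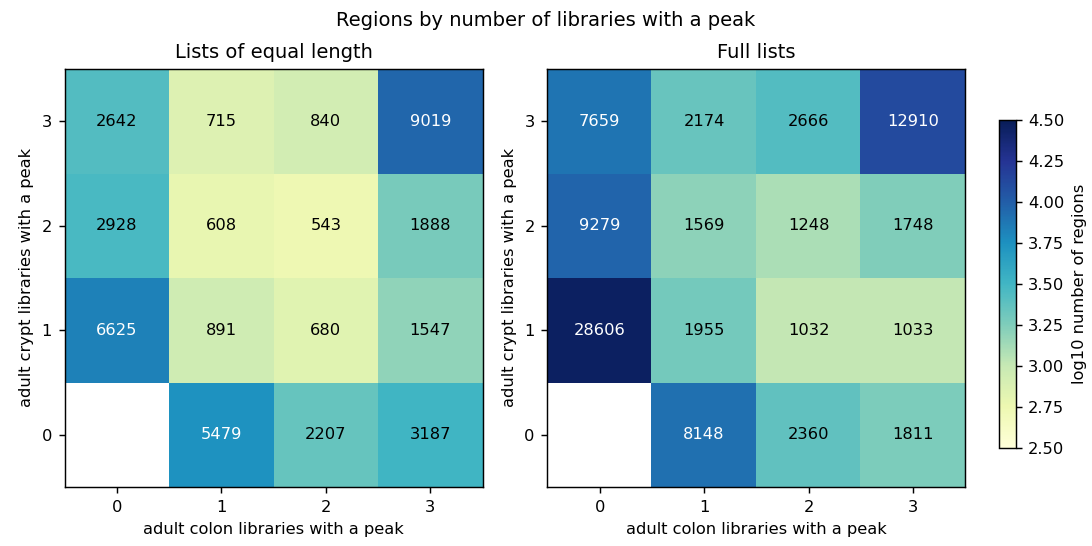
Number of regions by how many adult crypt libraries (vertical) and adult colon libraries (horizontal) had a peak, on lists of equal length (left) and full lists (right); colour is the log10 number of regions. The corners of exclusive regions hold 2642 and 3187 regions on equal lists and 7659 and 1811 on full lists.

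The order of the exclusive classes depended on list length. On full lists 7659 regions (9.1%) were exclusive to crypt and 1811 (2.15%) to colon, in place of a small excess on the colon side. As the plot of regions by number of libraries shows, the class called in 1 library alone was large, with 28606 regions in a single crypt library and 8148 in a single colon library on full lists. Without colon replicate 1, which has the shortest list, the equal length became 27986 peaks and 5374 regions were exclusive to colon and 3770 to crypt.

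The regions exclusive to crypt on equal lists mostly lacked a colon peak also when weaker peaks were admitted. Of the 2642, 2013 (76.2%) had no peak in any colon library on full lists, 481 had a peak in 1 and 148 in 2. Of the 3187 regions exclusive to colon, 1344 (42.2%) had no peak in any crypt library on full lists, 674 had one in 1, 727 in 2 and 442 in all 3. Of all of them, 57.8% therefore had a weaker peak in at least 1 crypt library. The 2 classes cannot be compared on this count. Colon replicate 1 set the equal length, so its full list adds no peak and no crypt-exclusive region could gain one in all 3 colon libraries, whereas every crypt list adds weaker peaks.

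Exclusive regions were narrower than shared ones in both tissues. The median width was 327 bp (interquartile range 268 to 416) for crypt-exclusive regions, 408 bp (336 to 506) for colon-exclusive regions and 575 bp for regions in all 6 libraries. A region is the union of its peaks, so its width grows with the number of libraries that have one. On full lists the median was 122 bp for 1 crypt library alone, 191 bp for 2 and 271 bp for 3. Colon peaks were also wider, so the widths do not compare these classes on equal terms. The height of a peak is given here as pileup, the largest number of extended reads over one base, per M kept reads. Crypt-exclusive regions had a median pileup of 1.25, 1.04 and 0.879 per M in the 3 crypt libraries, against 1.81, 1.47 and 1.21 for regions in all 6. Colon-exclusive regions had 0.899, 1.09 and 1.13 per M in the 3 colon libraries, against 1.67, 1.99 and 1.89 for regions in all 6. In each of the 6 libraries the exclusive class was the lower one.

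At the edge of the rule on full lists, 2174 regions were called in 3 crypt libraries and 1 colon library, with a median pileup of 0.835 per M in crypt and 0.55 in that colon library, and 7659 just inside the rule had 0.763 in crypt. On the colon side, 1033 regions were called in 3 colon libraries and 1 crypt library, with medians of 0.902 and 0.586, and the 1811 exclusive regions had 0.891.

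Several of the strongest crypt-exclusive regions also had a peak in every other duodenum library. By the naming rule (the 10 exclusive regions on full lists with the highest mean pileup per tissue), 8 of the 10 crypt regions and 4 of the 10 colon regions lay on chromosome Y or within the first 3.2 Mb of a chromosome. Enrichment over local background in those 12 regions was only 1.64 to 3.55 fold by the authors' caller. The regions described next therefore also come from a second choice, outside those places, that was made after the values were seen. The region at chr1:90184080-90185192, named by both choices, had a pileup of 3.41, 3.43 and 2.39 per M in crypt and no peak in colon. It was also called in 12 of the 12 other duodenum libraries and in 0 of the 5 other colon libraries. The region at chr8:6886887-6887448 had 2.43, 2.45 and 2.22 per M in crypt and the same record in the other libraries. At chr16:63783385-63783760 the crypt values were 2.92, 2.56 and 2.01, and at chr3:140962743-140963041 they were 2.71, 2.56 and 2.05. Each of that pair was called in all 12 other duodenum libraries and in 1 juvenile colon library. Membership was not always so clean, since chr1:185588158-185588717 (2.99, 2.51 and 2.47 in crypt) had a peak in 12 other duodenum libraries and also in 3 of the 5 other colon libraries. The region at chr4:79649059-79649195 was called in 11 and 4 of them, and the one at chrX:166427272-166427494 in all 12 and all 5.

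The strongest colon-exclusive regions varied in which other libraries called them. At chr7:52898825-52899410 the pileup was 2.31, 3.16 and 2.65 per M in adult colon with no peak in crypt, and the region was called in all 5 other colon libraries and in none of the 12 other duodenum libraries. The region at chr8:13300980-13301505 (2.27, 2.67 and 2.49 in colon) was called in the same 5 colon libraries and 1 juvenile duodenum library. Both were thus called in colon at each of the 3 ages. Other regions were called in colon and villus. At chr4:116422362-116422988 the adult colon values were 2.70, 2.78 and 3.01 per M, and at chr19:55938023-55938485 they were 2.52, 3.04 and 2.88. Both regions were called in 3 of 3 libraries each of juvenile colon, adult villus and geriatric villus, and in no geriatric crypt, juvenile duodenum or geriatric proximal colon library. The region at chr2:122087175-122087851 (2.01, 3.35 and 2.54 in colon) was close to this, with 3 juvenile colon, 3 adult villus and 2 geriatric villus libraries and no geriatric crypt library. The region at chr15:74397248-74398095 had the steadiest level, 2.57, 2.56 and 2.62 per M in adult colon. It was called in 2 adult villus libraries and 1 geriatric villus library and in no other colon library. Others were of neither kind, such as chr8:63820551-63821242 (2.48, 2.74 and 2.70 in colon), which was called in all 5 other colon libraries and in 10 of the 12 other duodenum libraries, 2 of them geriatric crypt. The region at chr7:129367140-129367854 was called in 6 other duodenum libraries and 1 other colon library.

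The other 17 libraries were not used to choose the exclusive regions and so show how far the classes carry over. They comprise whole duodenal epithelium at 12 days, colon at 15 days (each library pooled from 6 mice), adult villus at 90 days, and villus, crypt and proximal colon at 21 months (the last pooled from 2 mice per library, with 2 libraries). On full lists, crypt-exclusive regions had a peak in 97.0 ± 2.31% of cases in geriatric crypt, 76.7 ± 1.54% in juvenile duodenum, 69.1 ± 8.59% in adult villus and 65.3 ± 5.93% in geriatric villus (SD, n = 3 each). The share was 8.54 ± 2.5% in juvenile colon (SD, n = 3) and 9.01% and 19.6% in the geriatric proximal colon libraries. The 12 duodenum libraries (77.0 ± 13.6%, SD) lay above all 5 colon libraries (10.8 ± 5.19%, SD), with a two-sided exact permutation p of 0.000162, the smallest this design gives, and 0.000324 after Benjamini-Hochberg adjustment over both classes. The other duodenum libraries had 35105 to 60519 peaks and the other colon libraries 11355 to 22299. With every list cut to 11355 peaks the difference was 26.1 percentage points, again with p = 0.000162 by the exact permutation test. The permutations here and below exchange single libraries, although the 17 are replicates within 6 groups and may share animals. Their p-values therefore speak to libraries and not to those groups.

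On full lists, colon-exclusive regions did not carry over to colon in that way. They had a peak in 54.8 ± 11.5% of cases in adult villus, 48.8 ± 5.97% in geriatric villus, 41.6 ± 3.79% in juvenile duodenum, 39.7 ± 7.14% in juvenile colon and 31.7 ± 7.71% in geriatric crypt (SD, n = 3 each). The geriatric proximal colon libraries had 9.54% and 18%. Of the whole catalogue, the 12 duodenum libraries had a peak in 33.3% to 54.5% of regions and the juvenile colon libraries in 18.5% to 21.9%. In geriatric proximal colon it was 11.6% and 17.4%. Juvenile colon thus lay above its share over the catalogue, and each geriatric crypt library below its own. Every villus library was above its own share as well. Adult villus had 63.5%, 59.1% and 41.8% against 47.8%, 44.1% and 33.3%, and geriatric villus 48.4%, 54.9% and 43% against 37%, 41.9% and 33.4%. Juvenile duodenum was close to its own, 37.7%, 45.2% and 42% against 37.2%, 42.2% and 39.8%. Proximal colon had 18% against 17.4% and 9.54% against 11.6%. Over all 17 libraries the share of colon-exclusive regions was higher in duodenum by 14.9 percentage points (44.2 ± 11.2% against 29.3 ± 15.4%, SD, n = 12 and n = 5, exact permutation p = 0.0389), and this direction turned with list length. On lists of 11355 peaks it was lower in duodenum, 6.5% against 14.7%, with an exact permutation p of 0.00372. At that length the order was juvenile colon (18 ± 1.17%, SD, n = 3), adult villus (10.5 ± 0.646%), geriatric villus (9.88 ± 0.846%), geriatric proximal colon (9.79%, n = 2), juvenile duodenum (4.66 ± 0.623%) and geriatric crypt (0.962 ± 0.327%). Adult villus, geriatric villus and proximal colon did not differ beyond their spread.

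**Figure D2:**
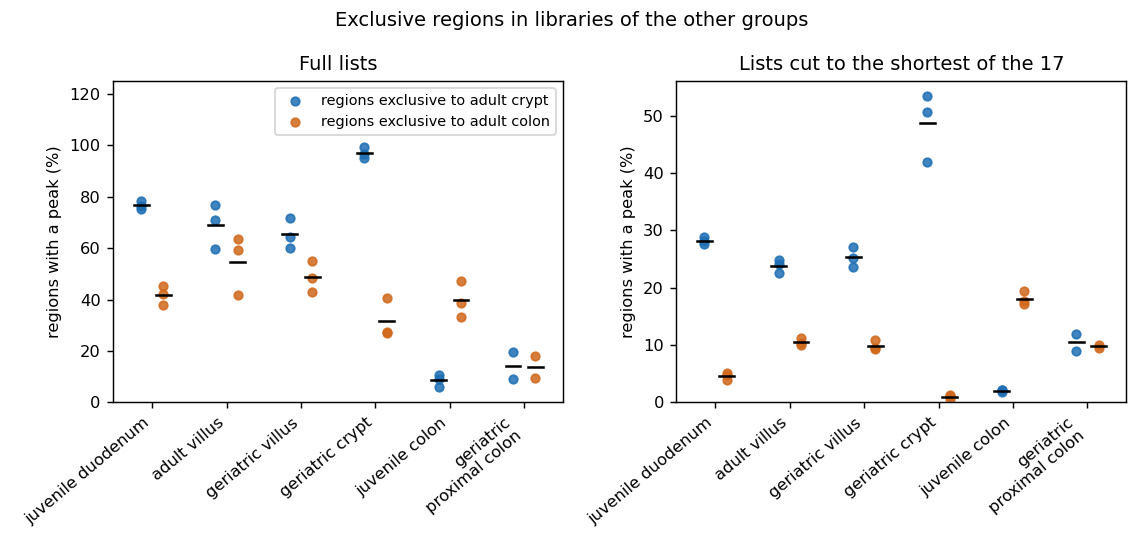
Share of the regions exclusive to adult crypt (blue) and to adult colon (orange) that had a peak in each library of the other 6 groups, on full lists (left) and on lists of 11355 peaks (right); points are libraries and bars are group means. Blue points are high in the 4 duodenum groups and low in juvenile colon in both panels, and orange points are lowest in geriatric crypt on the right.

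Villus and geriatric crypt, both from duodenum, differed in how many colon-exclusive regions they held. The 6 villus libraries had 51.8 ± 8.82% and the 3 geriatric crypt libraries 31.7 ± 7.71% (SD) on full lists, with an exact permutation p of 0.0238, adjusted to 0.0476 over 12 such comparisons. On lists of 11355 peaks they had 10.2 ± 0.753% and 0.962 ± 0.327% (SD, exact permutation p = 0.0119, adjusted p = 0.0286), and the 2 groups did not overlap. For crypt-exclusive regions the order was the opposite, 67.2% in villus and 97.0% in geriatric crypt on full lists (exact permutation p = 0.0119, adjusted p = 0.0286). These 12 comparisons were chosen after the data were seen. Their p-values exchange single libraries, and villus and crypt libraries of the same age may share animals. Regions exclusive to adult colon on equal lists were hence more often called in villus than in geriatric crypt, at both list lengths. They are not all without a crypt peak, since 57.8% had a weaker one in an adult crypt library on full lists. Geriatric crypt is also the same fraction as the adult crypt libraries whose lists were used to choose them.

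The same was counted region by region on full lists. Of the 7659 crypt-exclusive regions, 6144 (80.2%) had no peak in any of the 5 other colon libraries, 1437 (18.8%) had one in every geriatric crypt and villus library, and 1136 (14.8%) had one in every geriatric crypt library and no villus library. Of the 1811 colon-exclusive regions, 801 (44.2%) had no peak in any of the 12 other duodenum libraries, 168 (9.28%) had one in every juvenile colon library and 258 (14.2%) in every adult villus library. Another 99 (5.47%) had one in all 6 villus libraries and no geriatric crypt library. The regions at chr4:116422362-116422988 and chr19:55938023-55938485 are of that kind. Colon-exclusive regions called in all 5 other colon libraries numbered 24 (1.33%), of which 6 had no peak in any other duodenum library. For 517 (28.5%) of the colon-exclusive regions no other library had a peak. Taken singly, the 5 other colon libraries had a peak in 11.6% to 21.9% of the whole catalogue. The 12 other duodenum libraries had one in 33.3% to 54.5%. Most catalogue regions thus also lacked a peak in any given other colon library. Counts over several libraries at once were not made for the catalogue, so those above describe the classes without such a base.

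On equal lists, crypt-exclusive regions crowded in 1 stretch of chromosome 2. Windows of 1 Mb were ranked by their number of exclusive regions on equal lists, and the 3 that led for crypt adjoined each other, with 11 of 29 regions at chr2:175000001-176000000, 10 of 25 at chr2:176000001-177000000 and 8 of 37 at chr2:177000001-178000000. Over the 3 Mb, 29 of 91 regions were exclusive to crypt and 0 to colon on equal lists, and 24 and 0 on full lists. Over the whole catalogue the crypt-exclusive shares were 3.14% and 9.1%. All 2642 crypt-exclusive regions on equal lists were spread over 1358 windows. On full lists the 3 windows held 10, 8 and 6 crypt-exclusive regions, fewer than the leading windows, which held 16 to 20. Of the 29, between 25 and 29 had a peak in each of the 12 other duodenum libraries, between 2 and 4 in each juvenile colon library, and 4 and 1 in the geriatric proximal colon libraries. The 7 regions of the stretch that had a peak in all 6 libraries were all higher in crypt, by 1.13 to 2.29 on the log2 scale in the test described next. Over all 12910 regions of that test, 18.6% were higher in crypt. At chr2:176990888-176991531, for example, the pileup was 3.06, 2.94 and 2.55 per M in crypt and 0.856, 0.752 and 1.1 in colon. The stretch was picked out by its counts, so these values describe it and carry no test of their own.

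For the 12910 regions with a peak in all 6 libraries on full lists, peak height was compared directly. The log2 pileup per M kept reads was set to a median of 0 in each library and tested with limma, which estimates the spread of each region partly from all others. Its p-values speak only to the scatter among these 6 libraries. The study describes 3 biological replicates per age, whereas its protocol pools 2 mice per adult colon library, and which mice gave which library is not stated, so libraries may share animals. At an adjusted p under 0.05, 2399 regions (18.6%) were higher in crypt and 2610 (20.2%) higher in colon, 38.8% together. The groups did not overlap in 6022 regions (46.6%). Correlations of log2 pileup over these regions were 0.816 to 0.828 between crypt libraries, 0.899 to 0.928 between colon libraries and 0.567 to 0.629 between crypt and colon libraries, as a description across regions that share their libraries.

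With library medians set equal, regions called higher in crypt had the larger median difference and were narrower. Regions higher in crypt had a median difference of 0.78 on the log2 scale and a median width of 479 bp, and 637 of them (26.6%) differed by at least 1. Regions higher in colon had a median difference of -0.66 and a median width of 624 bp, and 345 of them (13.2%) differed by at least 1. The median SE was 0.22 for the crypt calls and 0.17 for the colon calls, whose median levels were -0.28 and 0.22. The smallest called difference was 0.35 towards crypt and -0.35 towards colon. The order of the median differences rests on the centring, since without it every difference moves by -0.30 and the colon calls have the larger median. In the fifth of regions with the lowest mean level, 668 were higher in crypt and 143 in colon, and in the fifth with the highest level 249 and 693. On the plot of difference against level the crypt calls accordingly sit to the left and the colon calls to the right. Over all regions, called or not, the median difference was 0.29, 0.12, -0.05, -0.17 and -0.12 from the lowest level to the highest. The SD of log2 pileup across regions was 0.64 to 0.67 in crypt libraries and 0.72 to 0.79 in colon libraries. Setting medians equal removes neither. With cyclic loess, which adjusts libraries by level, 2395 regions were higher in crypt and 2341 in colon. How much of the split of calls by level follows this drift was not tested.

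**Figure D3:**
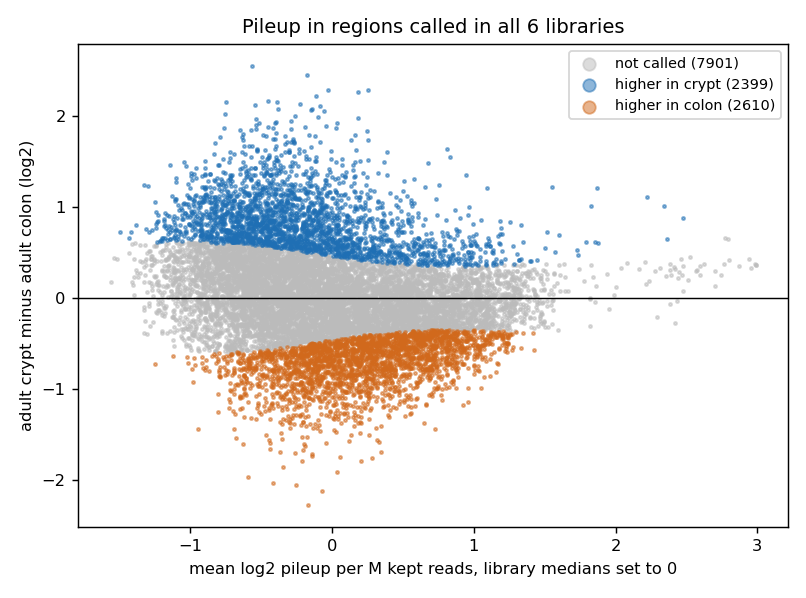
Difference of log2 pileup, adult crypt minus adult colon, against the mean log2 level (library medians set to 0) for the 12910 regions called in all 6 libraries. Blue points were higher in crypt (2399), orange points higher in colon (2610) and grey points did not pass the test.

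How many regions fell on each side depended on the scale. Before the medians were set equal, the median region had a pileup of 1.53, 1.25 and 1.05 per M in crypt and 1.41, 1.65 and 1.6 in colon. The median difference was then -0.30 on the log2 scale, and 669 regions were higher in crypt and 3625 in colon. Divided by read extension as well, the median difference was 0.28, and 2884 regions were higher in crypt and 369 in colon. With the authors' fold enrichment over local background in place of pileup, 1928 were higher in crypt and 1352 in colon. The split between directions is therefore a statement about relative height within a library. Centring and extension shift every difference by 1 constant and leave the order of regions by their difference as it is, whereas fold enrichment changes that order.

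The region with the largest difference towards crypt was chr14:106131517-106132056. Its pileup was 2.02, 2.89 and 1.51 per M in crypt and 0.471, 0.413 and 0.419 in colon, a difference of 2.55 on the log2 scale (SE 0.25, limma adjusted p = 6.34e-15). At chr16:58670068-58670876 crypt had 3.27, 2.62 and 2.09 per M and colon 0.642, 0.526 and 0.603. Every crypt library was above every colon library in both. The third and ninth of the 10 regions, at chr2:177812923-177813526 and chr2:177249242-177249743, belong to the stretch of chromosome 2 described above. The first of these had 3.76, 2.40 and 2.26 per M in crypt and 0.599, 0.902 and 0.603 in colon, a difference of 2.29 (SE 0.20, limma adjusted p = 1.38e-17).

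At chr4:141549786-141550328 crypt had 3.96, 3.87 and 2.39 per M and colon 0.856, 0.639 and 1.07, a difference of 2.29 (SE 0.18, limma adjusted p = 2.94e-20). Among the other libraries this region had a peak in all 3 geriatric crypt libraries, 1 adult villus library and no geriatric villus library. The 10 differences ran from 2.13 to 2.55, and this was the one region of the 10 with no peak in a geriatric villus library. A peak in all 3 geriatric crypt and all 3 juvenile duodenum libraries was common to all 10. Their juvenile colon record ranged from 0 libraries at chr17:76935115-76935708 to all 3 in 5 of them.

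The largest difference towards colon was at chr13:42372107-42372747, where crypt had 0.487, 0.654 and 0.418 per M and colon 2.65, 3.35 and 3.17. The difference was -2.28 on the log2 scale (SE 0.21, limma adjusted p = 7.08e-16). In the geriatric libraries the same region had 0.695, 0.536 and 0.297 per M in crypt and 1.17 and 0.706 in proximal colon, again without overlap. Of the 20 regions named by pileup, 5 had a peak in every geriatric crypt and proximal colon library. In pileup per M, before centring, geriatric groups were apart in this one and at chr4:141549786-141550328 (5.46, 3.13 and 1.78 against 1.07 and 0.382) and overlapped in the other 3. With library medians set equal, the geriatric difference had the adult direction in all 5. It was -1.92 on the log2 scale in this one, 1.28 at chr4:141549786-141550328 and 0.49 at chr14:106131517-106132056. At chr16:11456242-11456853 crypt had 0.765, 0.599 and 0.418 and colon 3.00, 3.16 and 3.09 per M (difference -2.12, SE 0.20, limma adjusted p = 1.01e-15). The geriatric values overlapped there before centring, with 0.856, 0.714 and 0.346 in crypt and 0.974 and 0.5 in proximal colon, and the centred difference was -1.23. Adult colon values were close together at that region, as they were at chr5:64857388-64857931 with 3.30, 3.31 and 3.38 per M against 0.835, 0.763 and 0.753 in crypt. At the latter the geriatric values also overlapped before centring, with 1.12, 0.893 and 0.42 in crypt and 0.633 and 0.529 in proximal colon. The centred geriatric difference there was -0.63. The 10 differences ran from -2.28 to -1.76, and each of the regions was called in every juvenile colon library. At chr3:22001265-22001874, with 3.00, 3.12 and 3.17 per M in colon, crypt replicate 1 (1.18) stood above the other two (0.599 and 0.418), and the region was called in all 6 villus libraries and in no geriatric crypt library. Crypt replicate 1 was also the high one at chr17:44339625-44340400, where crypt had 1.81, 0.545 and 0.586 and colon 3.21, 3.57 and 3.61.

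**Figure D4:**
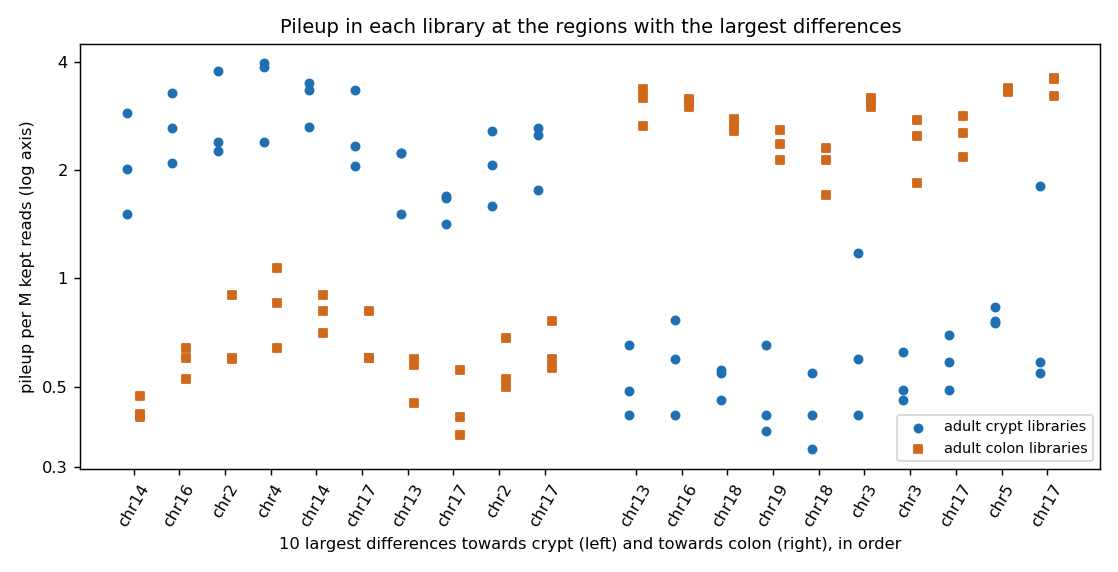
Pileup per M kept reads (log axis) in each adult crypt library (blue circles) and adult colon library (orange squares) at the 10 regions with the largest differences towards crypt (left) and towards colon (right), in order of size and labelled by chromosome. The rule that chose the 20 regions required groups that do not overlap, and colon values at the first crypt region lie between 0.413 and 0.471 against 1.51 to 2.89 in crypt.

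The called regions were then read in the libraries that played no part in the test, a comparison added after the data were seen. Of the regions with a peak in all 23 libraries, 5195 in number, 726 were higher in adult crypt and 1350 higher in adult colon. For each library the median log2 pileup of the first set minus that of the second was taken. It was 0.43 ± 0.11 in adult crypt and -0.92 ± 0.13 in adult colon (SD, n = 3 each), which only restates how the sets were chosen. In the 12 other duodenum libraries it was 0.23 ± 0.10 (0.05 to 0.37), and in the 5 other colon libraries -0.22 ± 0.17 (-0.38 to 0.0). The groups overlapped nowhere, with an exact permutation p of 0.000162 and 0.000324 after adjustment over 2 comparisons. As above, this p exchanges single libraries that are replicates within smaller groups. The crypt calls also sat at lower levels than the colon calls. How far the spread of levels within a library enters this measure was not tested.

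**Figure D5:**
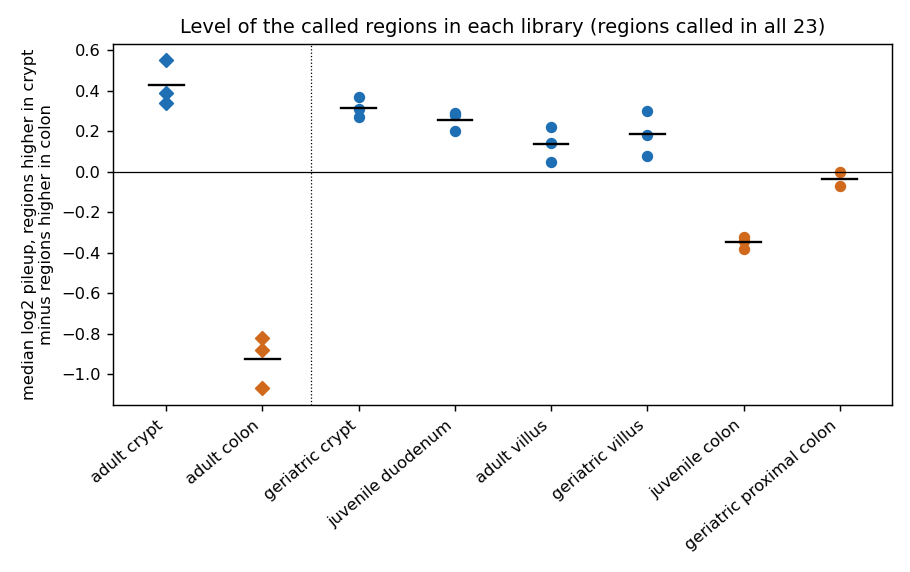
Median log2 pileup of the regions higher in adult crypt minus that of the regions higher in adult colon, in each of the 23 libraries, over regions called in all of them; bars are group means. Left of the dotted line are the libraries that chose the regions (diamonds), and right of it the juvenile colon libraries lie from -0.38 to -0.32 and the geriatric crypt libraries from 0.27 to 0.37.

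Within duodenum the 6 villus libraries had 0.16 ± 0.09 and the 3 geriatric crypt libraries 0.32 ± 0.05 (SD, exact permutation p = 0.0476, also after that adjustment). Within colon the 3 juvenile libraries had -0.38, -0.32 and -0.34, and the 2 geriatric proximal colon libraries -0.07 and 0.0. Proximal colon thus sat between duodenum and juvenile colon on this measure, as it did for the share of crypt-exclusive regions on equal lists, where it had 10.5% against 2.04% in juvenile colon. With 2 libraries, of a named segment and another age, and with the shortest lists of the series, its difference from the others was not tested.

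The geriatric libraries allowed the closest repeat of the contrast, crypt against proximal colon. Of the called regions, 2488 had a peak in all 5 geriatric libraries, and 1571 of them (63.1%) differed in the same direction as in the adults. The share was 54.8% over all 6249 tested regions with a peak in those libraries, a base that includes the called regions and is raised by them. Regions higher in adult colon kept their direction in 995 of 1475 cases (67.5%) and regions higher in adult crypt in 576 of 1013 (56.9%), the latter near the share over all regions. The median difference shrank from -0.61 to -0.15 for the first and from 0.71 to 0.08 for the second.

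The authors deposited lists of regions that differ between adult crypt and adult colon, made from the same 6 libraries, and they are set beside the classes here as a description. The authors' deposited table for crypt held 5506 regions, and 62.5% of the catalogue regions they met were crypt-exclusive on full lists. The share over the whole catalogue was 9.1%. The authors' deposited table for colon held 8344 regions, and 51.2% of the catalogue regions they met had a peak in all 6 libraries while 18% were colon-exclusive on full lists. Over the whole catalogue these shares were 15.3% and 2.15%. On full lists, listed crypt regions were therefore mostly called in crypt alone, and listed colon regions were for the larger part called in both tissues. This contrast depended on list length. On equal lists, 1725 of the 5676 catalogue regions that met the crypt list were crypt-exclusive. Of the 8482 that met the colon list, 2249 were colon-exclusive on equal lists. Over the whole catalogue those equal-list shares were 3.14% and 3.79%. Of the 4346 regions with a peak in all 6 libraries that met the authors' deposited colon list, 2373 (54.6%) were also called higher in colon here, 8 were called higher in crypt and 1965 were not called. Their median difference was -0.46 with medians set equal and -0.75 without. All 123 that met the authors' deposited crypt list were called higher in crypt, with a median of 1.55. Over all 12910 regions with a peak in all 6 libraries, 18.6% were higher in crypt and 20.2% in colon.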

How the data were processed

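Processed ATAC-seq peak tables of 23 libraries were used, of which 6 (adult crypt and adult colon) are compared and 17 serve as other libraries. Per the submitters' processing notes, the tools named are cutadapt 1.9.1, Bowtie2, SAMtools 0.1.19, Picard 2.18.27, deepTools, bedtools 2.17.0, MACS2 2.1.0.20150731 and DiffBind, with build mm9. Per the file headers, peaks were called per library by MACS2 without a control, at a q-value under 0.05, keeping 1 read per position, with a local background of 10 kb. Keeping 1 read per position caps the pileup, and 130 of the 12910 regions (1.01%) reached 50% of the cap in a library. The deposited columns hold pileup (a signal in extended reads), -log10 p and -log10 q-values (p-value scale), fold enrichment (a ratio) and positions. A pair of further deposited lists gives the authors' crypt and colon regions.

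Positions were merged at 1 bp overlap. Equal-length lists kept the strongest peaks by -log10 p. Pileup was scaled per 1000000 kept reads from the header, taken as log2, centred by library median, and fitted with limma 3.58.1 in R 4.3.3 (trend, Benjamini-Hochberg over 12910 regions, 4 residual and 111 prior degrees of freedom, called at 0.05), which was tested on simulated data. Regions were named by rule: per direction, the 10 exclusive on full lists with the highest pileup, and the 10 largest log2 differences among called regions without overlap between groups. The members, lists and rules were chosen with earlier results of these data known. Planned gene assignment and sequence features were not analysed here, since no genome or annotation of mm9 was used.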

Additional observations from a re-analysis of the deposited data

How the results depend on the processing

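On full lists 7659 regions were exclusive to crypt and 1811 to colon. Leaving out 1 library at a time gave 2892 to 3770 for crypt and 3614 to 5374 for colon, the last without colon replicate 1. The duodenum minus colon difference in the share of colon-exclusive regions was -8.23 percentage points (exact permutation p = 0.00372) on lists cut to the shortest of the 17. It was 1.43 points for regions exclusive on full lists, 4.54 without geriatric proximal colon and 10.8 when a peak had to cover 50% of the region. For the test of pileup, 669 regions were higher in crypt without centring. Colon calls fell to 1352 with fold enrichment in place of pileup, to 1707 (of 9019 regions) with equal lists and to 369 per read extension without centring. Leaving out 1 library gave 1869 to 2249 crypt and 1934 to 2494 colon calls. With the replicate number as a block, 2385 and 2603 regions were called. Same-numbered libraries deviated with correlations of -0.0516, -0.0496 and 0.0526, so no pairing by number showed in these values. They cannot tell whether same-numbered libraries share animals. Geriatric counts ran from 1523 to 1624 when 1 library was left out. The 279 alternative values of the named pileup regions kept their direction and their side of the threshold, and 18 of 96 presence values of the named exclusive regions moved. None took the opposite direction, but at chr11:3077798-3078139 the difference was 0 libraries with -log10 q of at least 5. The cause of these changes was not tested. The alternative distance for gene assignment was not run.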

Other observations

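The chromosomes differed in how exclusive and called regions were shared out. Colon-exclusive regions on equal lists made up 5.34% of the regions of chromosome 19 and 4.71% of those of chromosome 11, against 3.79% over the catalogue, and crypt-exclusive regions 2.0% and 2.38%, against 3.14%. On full lists the colon-exclusive shares were closer to the whole, 2.75% and 2.31% against 2.15%, and the crypt-exclusive shares were 6.64% and 7.05% against 9.1%. Differences between chromosomes were not tested. Among regions with a peak in all 6 libraries, 26.9% on chromosome 19 and 28.6% on chromosome 11 were higher in colon, against 20.2% over all, and 9.57% and 13.7% were higher in crypt, against 18.6%. On chromosome X both shares were low, 12.7% higher in crypt and 6.94% higher in colon.

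Apart from the stretch of chromosome 2, which led on equal lists, the window with the most crypt-exclusive regions on full lists was chr5:87000001-88000000, with 20 of 57 and 0 exclusive to colon. For colon on equal lists the leading windows were chr7:52000001-53000000, with 16 of 119 regions, and chr5:115000001-116000000, with 14 of 120. At chr6:52000001-53000000 there were 11 colon-exclusive regions of 80 and none exclusive to crypt on equal lists, and 8 and 3 on full lists. Of the 11, 10, 8 and 6 had a peak in the juvenile colon libraries against 1 or 2 in each juvenile duodenum library. The other groups did not divide in that way. Adult villus libraries had 6, 5 and 4 of the 11, geriatric villus 4, 5 and 2, geriatric crypt 4, 2 and 2, and geriatric proximal colon 3 and 0. Over the whole catalogue, 9.1% of regions were crypt-exclusive on full lists and 3.79% colon-exclusive on equal lists. These windows were chosen by their counts and carry no test.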
